A study of Mus musculus with 6 samples.

Results

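Complement and coagulation plasma proteins are described here through the liver mRNA of 42 genes that encode complement components, clotting factors, fibrinolysis proteins and their plasma partners. The members were chosen by gene name from this protein class, not by their diet difference, though earlier results of these data were known. All 42 were found among the 13273 protein-coding genes of the table. Of these, 16 belong to complement and 26 to coagulation, fibrinolysis and related plasma proteases or matrix proteins. Livers came from 3 ETOH-WT mice, labeled as ethanol-fed (ETOH) for 3 weeks on a Lieber–DeCarli liquid diet, and from 3 PF-WT mice. The latter were pair-fed (PF) an isocaloric liquid diet without ethanol. In the ETOH diet ethanol was raised in steps, after first days in which all mice had the control diet. All 6 were female wild type C57Bl/6 mice aged 2 months at the start, and each gave 1 library of whole liver RNA. Mice were housed 2 to a cage, and the sources used here do not pair cage mates. The labels carry a code that is common to the mice of a diet and differs between the diets, so what it marks cannot be told apart from the diet. Levels are in FPKM (fragments scaled to transcript length and library size), a unit inferred from the values. In whole liver, fewer cells of a type and less RNA per cell cannot be told apart.

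Hepatocytes make most complement and clotting proteins of the blood and secrete them as inactive precursors. Complement starts when antibody or mannose-binding lectin activates a chain of serine proteases that cleave C4 and C2, or when C3 turns over spontaneously. Each route leads to cleavage of C3, and complement ends when the terminal components assemble a pore in the target membrane. Clotting runs through a similar chain of proteases, many of which need a vitamin K-dependent modification to bind membranes, and ends when thrombin turns fibrinogen into fibrin, which plasmin later dissolves.

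The 42 genes were among the more abundant mRNAs of the liver. Their mean level over the 6 livers ran between 6.49 FPKM for C6 and 1762 FPKM for the fibrinogen gamma chain Fgg, with a median of 207 FPKM, against a median of 5.34 FPKM over the table. By mean level they held ranks 30 to 6073 of the 13273 genes, with a median rank of 406.5. Of the members, 6 exceeded 1000 FPKM, 29 exceeded 100 FPKM and 2, C6 and protein S (Pros1), lay under 20 FPKM. No member was listed at 0 in any liver. In ETOH-WT mouse 1 no gene of the whole table was at 0, against 86 to 163 genes in the other livers. A value above 0 in that mouse therefore sets no gene apart. Summed over the members, the ETOH-WT livers held 15447, 16625 and 15140 FPKM (15737 ± 784, SD, n = 3), against 18519, 16457 and 14418 FPKM in the PF-WT livers (16465 ± 2051, SD, n = 3). These sums overlapped between the diets and made up 2.47 to 2.84% of all FPKM in ETOH-WT mice and 2.50 to 3.24% in PF-WT mice. The difference of the mean sums, −728 FPKM, was smaller than the spread among the PF-WT mice and turned positive, at 299.7 FPKM, when PF-WT mouse 1 was left out.

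**Figure D1:**
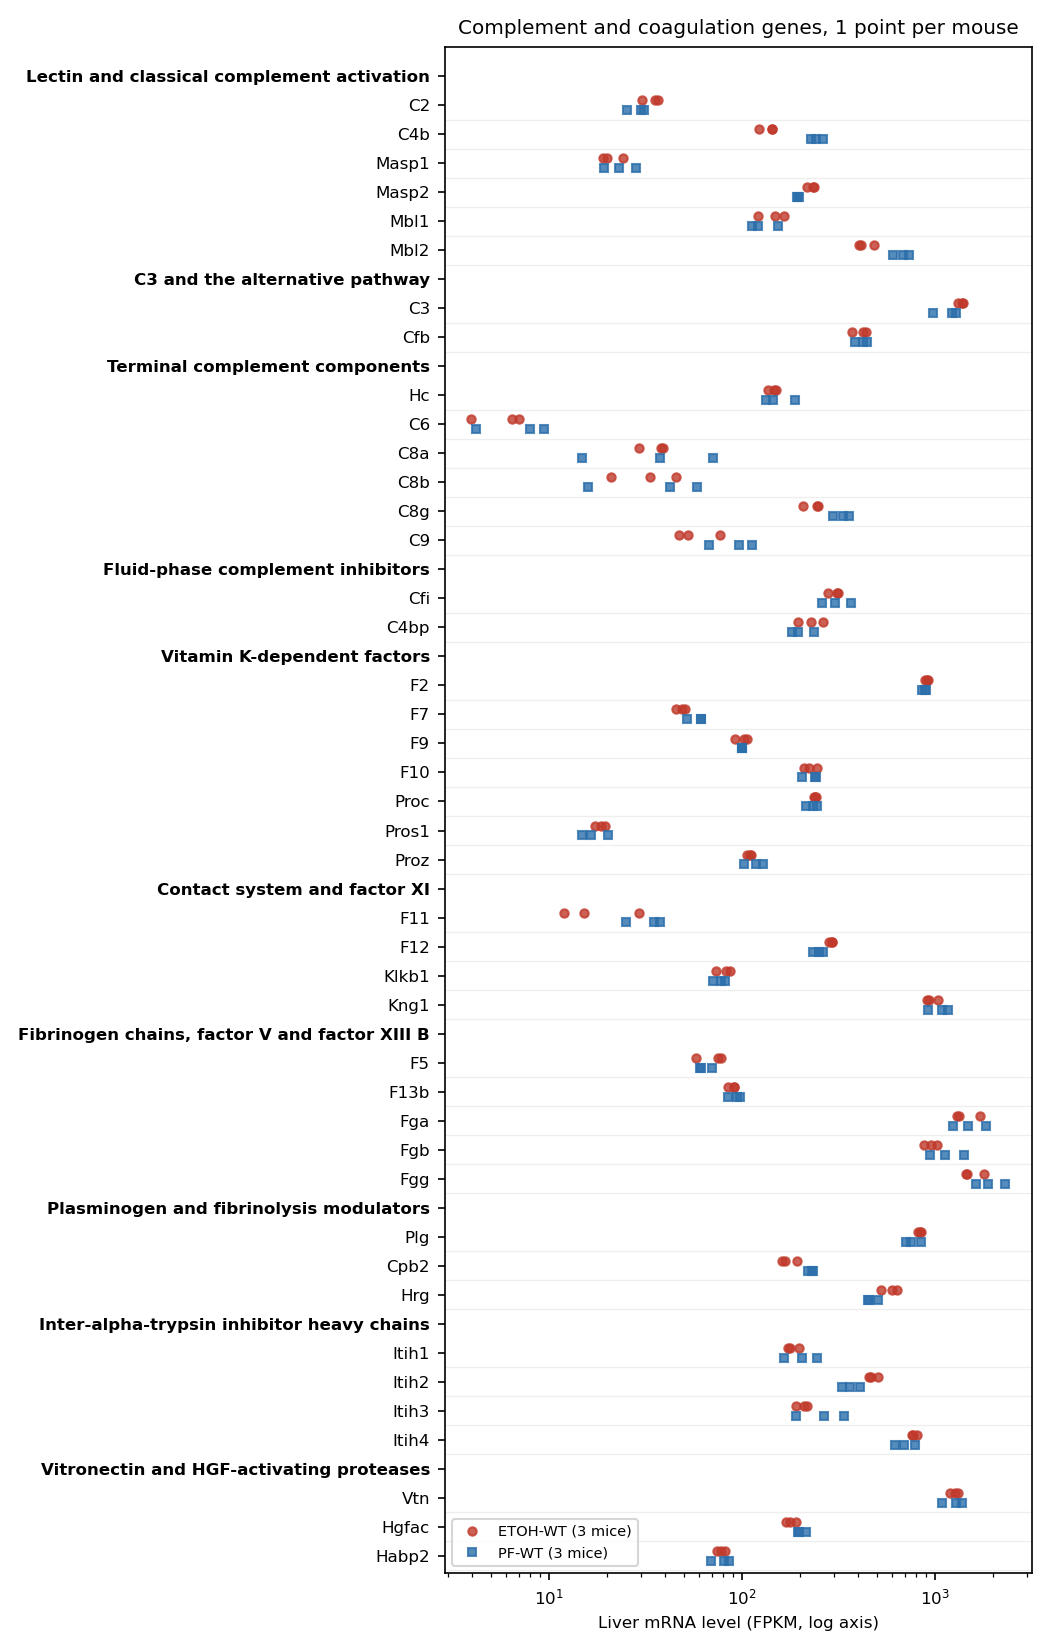
Liver mRNA level in FPKM (log axis) of each of the 42 genes, grouped by role, with 1 red circle per ETOH-WT mouse above 1 blue square per PF-WT mouse. C4b, Mbl2 and C8g show red points wholly to the left of blue ones, while most other genes overlap, and C8a and C8b spread widely among the PF-WT mice.

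The diet comparison asked which of these mRNAs differed between ETOH-fed and pair-fed livers. C4b, Mbl2 and C8g were lower in ETOH-WT livers, with a mean that fell by 44.6%, 35.7% and 29.4% relative to PF-WT livers, and no member rose past the threshold. Every gene with a mean of at least 0.5 FPKM, 11346 in all, was fitted with limma on log2(FPKM + 1), with a Benjamini-Hochberg adjusted p under 0.05 as threshold. Lower calls thus made up 3 of 42 members (7.14%), where 2.67% of all genes tested were called lower, and higher calls 0 of 42, where 3.97% of all genes were called higher, and in either direction 6.64% of all genes were called. At an unadjusted p under 0.05, 7 members were lower (background 9.33%) and 4 were higher (background 14.4%). In 6 members the 3 ETOH-WT values lay below all PF-WT values (C4b, Mbl2, C8g, F7, Cpb2 and Hgfac; background 11.2%), and in 5 they lay above (Masp2, C3, F12, Hrg and Itih2; background 17.9%). The median log2 fold change of the members was −0.03, against 0.02 over all genes tested. All 3 calls fell among the 16 complement members, whose median was −0.06, and none among the other 26, whose median was −0.01. Whether complement and coagulation members differ in this was not tested. The 95% interval of the fold change lay within 1.5-fold in either direction for 29 members (69.0%), close to the 73.2% of all genes.

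**Figure D2:**
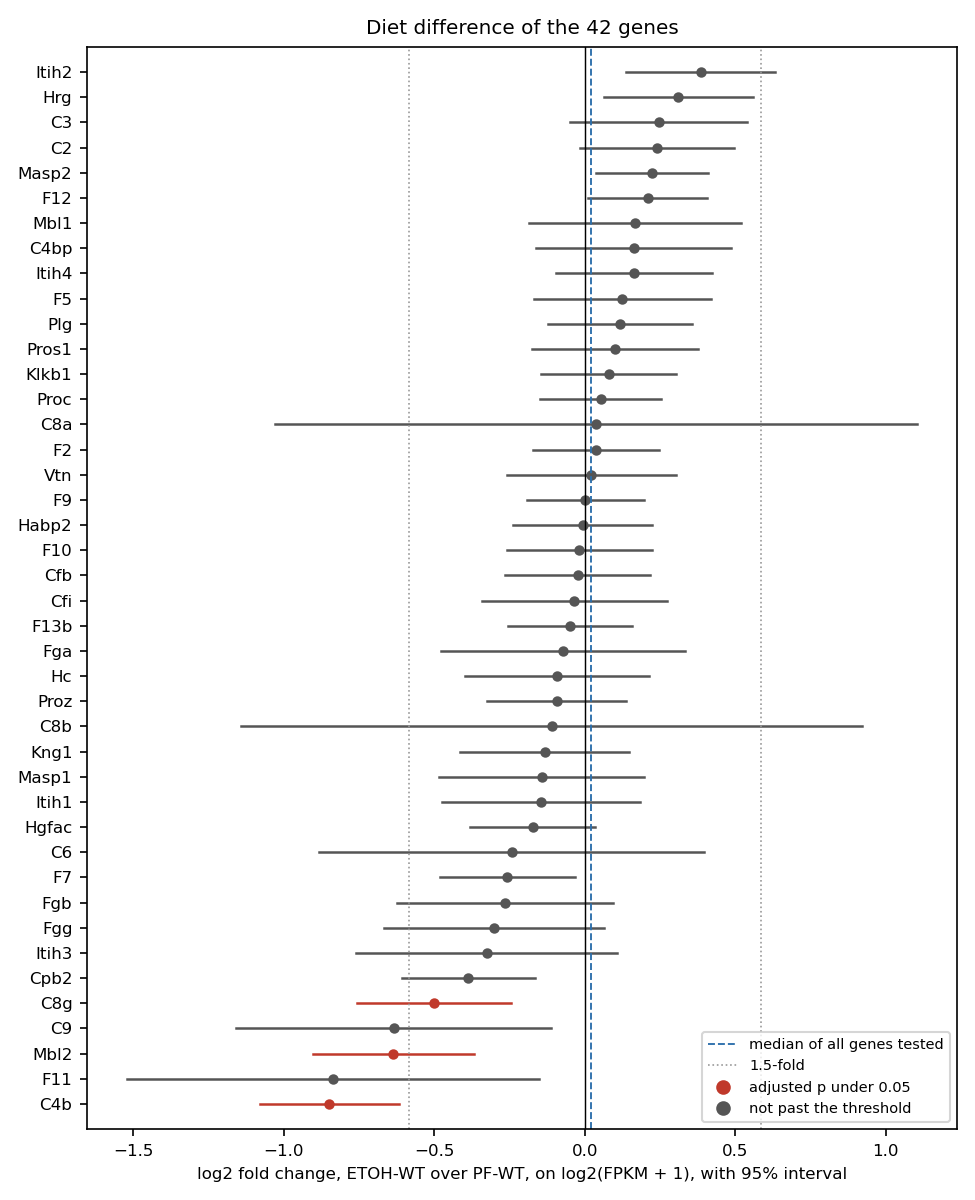
Log2 fold change of ETOH-WT over PF-WT on log2(FPKM + 1) for the 42 genes, sorted, with 95% intervals from limma. Red marks C4b, Mbl2 and C8g, the 3 genes past the threshold, the blue dashed line is the median of all genes tested (0.02), and the dotted lines mark 1.5-fold.

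Among the genes that start the lectin and classical pathways, C4b encodes complement C4, which is cleaved into the subunit that anchors the C3 convertase. C4b (ENSMUSG00000073418, chr17:34728380-34743882, GRCm38) had 142, 123 and 143 FPKM in ETOH-WT livers, against 264, 243 and 229 FPKM in PF-WT livers. The highest ETOH-WT value was well below the lowest PF-WT value. The means were 136 ± 11.3 and 245 ± 17.7 FPKM (SD, n = 3 each), and the log2 fold change was −0.85 ± 0.10 (SE, limma adjusted p = 0.00536), with a 95% interval of 0.474 to 0.651 for the fold. C4b was called under all 15 alternative settings, with adjusted p between 0.000698 and 0.0342 in limma. A near-identical neighbour, C4a, lies 65.2 kb away in RefSeq and was not analysed here, so reads of the 2 genes may be split or shared. C2, the protease that joins C4 in the convertase, had 36.5, 30.5 and 35.3 FPKM in ETOH-WT mice and 31.0, 29.9 and 25.3 FPKM in PF-WT mice, which overlapped (log2 fold change 0.24, limma adjusted p = 0.236). Within each library, the level of C4b relative to C2 was 3.90, 4.04 and 4.04 in ETOH-WT mice and 8.53, 8.14 and 9.05 in PF-WT mice. Exons of C2 overlap those of Gm20547, a read-through gene that also spans Cfb, and of Zbtb12, over 46.9% of their length, so some C2 fragments may belong to these.

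The mannose-binding lectins bind sugars on microbes and open the lectin pathway, and the mouse has a pair of them, MBL-A from Mbl1 and MBL-C from Mbl2. Mbl2 (ENSMUSG00000024863, chr19:30232928-30239685) had 417, 482 and 404 FPKM in ETOH-WT livers, against 734, 688 and 604 FPKM in PF-WT livers, with no overlap. Its means were 434 ± 42.1 and 675 ± 65.8 FPKM (SD, n = 3 each), a log2 fold change of −0.64 ± 0.12 (SE, limma adjusted p = 0.0211) with an interval of 0.535 to 0.774 for the fold. The call was lost without ETOH-WT mouse 1 (limma adjusted p = 0.0557), ETOH-WT mouse 3 (0.0928), PF-WT mouse 1 (0.0563) or PF-WT mouse 2 (0.0971), while the log2 fold change stayed between −0.73 and −0.57 under all 15 alternatives. Mbl1 (chr14:41151456-41158959) behaved otherwise, with 121, 165 and 148 FPKM in ETOH-WT livers and 154, 121 and 112 FPKM in PF-WT livers, which overlapped (log2 fold change 0.17, interval −0.18 to 0.52, limma adjusted p = 0.551). Per library, Mbl2 stood at 3.44, 2.92 and 2.72 times Mbl1 in ETOH-WT mice and at 4.77, 5.70 and 5.37 times in PF-WT mice. This ratio and that of C4b to C2 were among 15 pairs drawn up after the values were seen, and they carry no test. Of the 15 ratios, C8g to C8a, C8b to C8a, Masp2 to Masp1 and Fgg to Fgb overlapped between the diets.

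**Figure D3:**
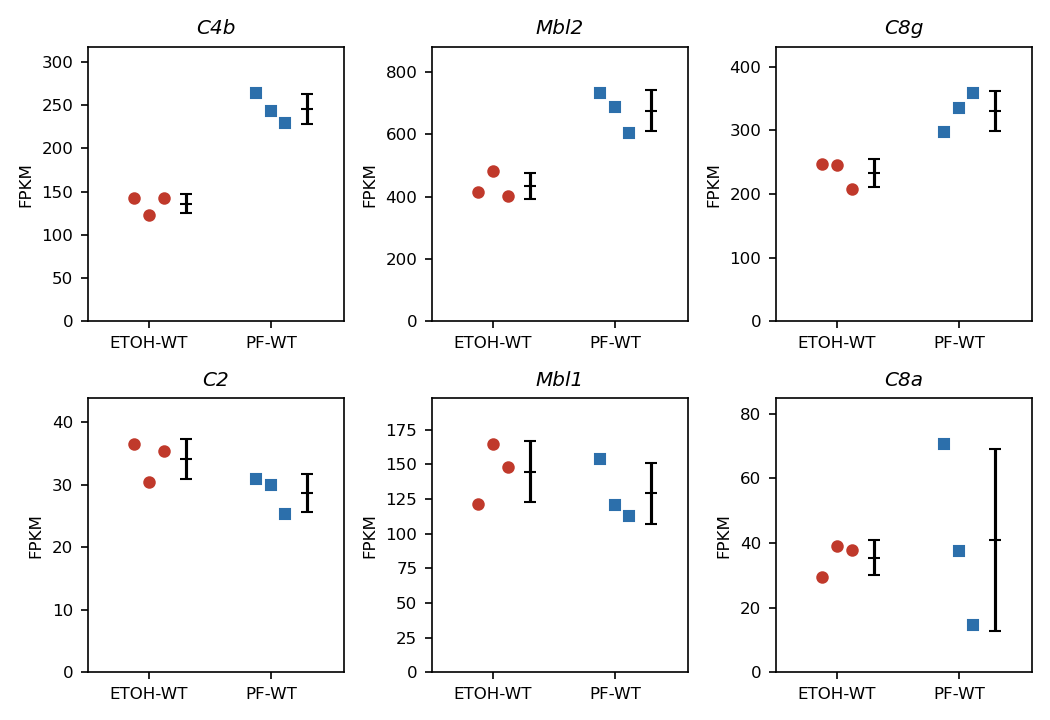
FPKM per mouse (red circles ETOH-WT, blue squares PF-WT) with mean ± SD in black, axes starting at 0, for the 3 called genes C4b, Mbl2 and C8g (top) and for C2, Mbl1 and C8a (bottom), which act beside them. The top genes show no overlap between the diets, with PF-WT means of 245, 675 and 330 FPKM, whereas the bottom genes overlap.

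The promoters of Mbl2 and Mbl1 are shown because the genes encode related lectins and gave different diet values. RefSeq (GRCm38.p6) holds a promoter, 250 bases before to 50 after the start, for 34 of the 42 members, and C4b, Cfb, Plg, Masp1, C2, Proc, Cfi and Kng1 are named only. Capitals in the sequences below mark the core of C/EBP sites (TTGCNNAA), searched on both strands. The core was found in 11 of 34 member promoters (32.4%) and in 10.8% of all 32851 promoters of that length. An HNF4 site spelled CAAAGTCCA, also searched on both strands, was found in 0 of 34 and in 0.475% of all. The Mbl2 and Mbl1 windows hold none of these letters, which says nothing of the factors themselves. A match is a description of letters and not a site of binding.
Mbl2 promoter, chr19:30232678-30232977, plus strand: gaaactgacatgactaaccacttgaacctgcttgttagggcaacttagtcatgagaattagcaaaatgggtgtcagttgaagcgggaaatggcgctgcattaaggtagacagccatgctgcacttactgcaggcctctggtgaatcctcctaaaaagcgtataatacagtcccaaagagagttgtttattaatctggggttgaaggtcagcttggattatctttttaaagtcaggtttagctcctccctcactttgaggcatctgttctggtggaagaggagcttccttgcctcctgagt
Mbl1 promoter, chr14:41151206-41151505, plus strand: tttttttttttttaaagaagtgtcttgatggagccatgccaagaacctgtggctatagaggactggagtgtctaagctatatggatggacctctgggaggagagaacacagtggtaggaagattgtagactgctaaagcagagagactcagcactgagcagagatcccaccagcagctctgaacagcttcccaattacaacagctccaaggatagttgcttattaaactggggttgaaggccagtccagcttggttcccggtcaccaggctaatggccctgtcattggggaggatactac

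The proteases bound to these lectins gave smaller differences. Masp2, which cleaves C4 and C2, had 236, 234 and 217 FPKM in ETOH-WT mice and 195, 193 and 198 FPKM in PF-WT mice. These values did not overlap, yet the log2 fold change of 0.22 ± 0.08 (SE) missed the threshold (limma adjusted p = 0.145). The exons of Masp2 overlap Tardbp over 54.9% of their length, and whether reads were counted by strand is not stated. Masp1, which activates Masp2, lay between 19.1 and 24.2 FPKM in ETOH-WT mice and between 19.4 and 28.1 FPKM in PF-WT mice.

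C3, on which all complement pathways converge, had 1391, 1406 and 1318 FPKM in ETOH-WT livers, against 1286, 1227 and 980 FPKM in PF-WT livers. All ETOH-WT values were above all PF-WT values, but the log2 fold change of 0.25 ± 0.13 (SE) did not pass the threshold (limma adjusted p = 0.292). Cfb, the protease of the alternative pathway convertase, had 374 to 441 FPKM in ETOH-WT mice and 387 to 447 FPKM in PF-WT mice (log2 fold change −0.02, interval −0.26 to 0.22), and 79.5% of its exon length is shared with Gm20547. The fluid-phase inhibitors also overlapped between the diets. Cfi, the protease that inactivates C3b and C4b, had 311, 314 and 280 FPKM in ETOH-WT mice and 369, 306 and 261 FPKM in PF-WT mice, and C4bp, its cofactor on C4b, had a log2 fold change of 0.16 (interval −0.16 to 0.49).

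Of the 6 terminal components, C8g was lower in ETOH-WT livers and 5 did not pass the threshold. C8g (ENSMUSG00000015083, chr2:25498651-25501719) encodes the gamma chain of C8, a lipocalin joined to the alpha chain. Its level was 247, 245 and 208 FPKM in ETOH-WT livers, against 297, 335 and 359 FPKM in PF-WT livers, with no overlap. The means were 233 ± 21.7 and 330 ± 31.4 FPKM (SD, n = 3 each), and the log2 fold change was −0.50 ± 0.11 (SE, limma adjusted p = 0.0388, interval of the fold 0.592 to 0.845). This call held in 8 of 15 alternatives. It was lost after median-ratio scaling (limma adjusted p = 0.0528), with the replicate number as a block (0.0950) and without ETOH-WT mouse 1 (0.0628), ETOH-WT mouse 2 (0.0542), ETOH-WT mouse 3 (0.141), PF-WT mouse 2 (0.150) or PF-WT mouse 3 (0.0872).

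The alpha and beta chains of C8, which insert into the membrane and lie side by side on chromosome 4, had no such pattern. C8a had 29.4, 39.1 and 38.0 FPKM in ETOH-WT mice and 70.7, 37.7 and 14.8 FPKM in PF-WT mice. C8b had 21.0, 45.3 and 33.2 FPKM in ETOH-WT mice and 58.3, 42.5 and 16.0 FPKM in PF-WT mice. In both genes PF-WT mouse 1 was highest and PF-WT mouse 3 lowest, and the ETOH-WT values lay between them. The highest PF-WT value was 4.78 times the lowest for C8a and 3.64 times for C8b, a spread larger than that of 99.5% and 99.2% of the genes tested. Their intervals were accordingly wide, from 0.490 to 2.15 for the fold of C8a and from 0.453 to 1.90 for that of C8b, so a difference of 1.5-fold in either direction would not have been detectable. C8g ran in the opposite order in these mice, with PF-WT mouse 3 highest. C8g relative to C8a was 8.40, 6.26 and 5.48 in ETOH-WT mice and 4.20, 8.90 and 24.2 in PF-WT mice, which overlapped.

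C9, which polymerizes into the pore, had 77.2, 52.7 and 47.2 FPKM in ETOH-WT livers and 113, 96.2 and 67.3 FPKM in PF-WT livers. The means were 59.0 ± 15.9 and 92.2 ± 23.1 FPKM (SD, n = 3 each), but ETOH-WT mouse 1 overlapped PF-WT mouse 3, and the log2 fold change of −0.63 ± 0.23 (SE) missed the threshold (limma adjusted p = 0.142). Hc, which encodes C5, lay at 136 to 150 FPKM in ETOH-WT mice and 133 to 188 FPKM in PF-WT mice. C6, the least abundant member, lay at 3.94 to 6.99 FPKM in ETOH-WT mice and 4.19 to 9.41 FPKM in PF-WT mice. The C8g promoter is shown as that of the called member of this group, and it too holds none of the letters searched.
C8g promoter, chr2:25501670-25501969, minus strand: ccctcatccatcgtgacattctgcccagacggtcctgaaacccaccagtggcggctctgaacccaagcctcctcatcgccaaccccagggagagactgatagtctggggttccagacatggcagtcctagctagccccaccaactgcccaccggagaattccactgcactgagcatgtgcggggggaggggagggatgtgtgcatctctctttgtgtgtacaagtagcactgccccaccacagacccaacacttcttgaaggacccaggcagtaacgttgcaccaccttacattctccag

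Of the 7 vitamin K-dependent factors, none passed the threshold in limma, where 6.64% of all genes tested did. At an unadjusted p under 0.05, 1 (F7) was lower (background 9.33%) and none higher (background 14.4%). Each of the 7 factors had a fold interval within 1.5-fold, as did 73.2% of all genes. Prothrombin (F2), the precursor of thrombin and the most abundant of them, had 913, 928 and 891 FPKM in ETOH-WT livers and 895, 906 and 864 FPKM in PF-WT livers. Its log2 fold change was 0.04 with an interval of −0.17 to 0.25. F9 averaged 100 ± 7.06 FPKM in ETOH-WT mice and 99.9 ± 0.607 FPKM in PF-WT mice (SD, n = 3 each). F7, which starts clotting with tissue factor, had 50.8, 45.3 and 48.9 FPKM in ETOH-WT mice, against 61.0, 61.3 and 51.9 FPKM in PF-WT mice, without overlap (log2 fold change −0.26 ± 0.10, SE, limma adjusted p = 0.161). F10 and Proz, which adjoin F7 on chromosome 8, had log2 fold changes of −0.02 and −0.09, and protein C (Proc) and its cofactor protein S (Pros1), both anticoagulants, had 0.05 and 0.10.

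F11 stood apart from the other contact genes. Factor XI, which activates factor IX, had 11.9, 29.1 and 15.2 FPKM in ETOH-WT livers, against 37.6, 34.9 and 24.9 FPKM in PF-WT livers. ETOH-WT mouse 2 fell within the PF-WT range, and the other ETOH-WT mice were below it. The log2 fold change of −0.84 ± 0.30 (SE) was close in size to that of C4b but did not pass the threshold (limma adjusted p = 0.139). Without ETOH-WT mouse 2, the mouse within the PF-WT range, it was −1.19 and passed (limma adjusted p = 0.0206). F11 was not called in 13 of the 15 alternatives. Over the 15, its log2 fold change ran from −1.19 to −0.58, with limma adjusted p up to 0.321. Klkb1, plasma kallikrein, lies next to F11 on chromosome 8 and gave 73.6, 87.0 and 82.9 FPKM in ETOH-WT mice and 81.8, 77.5 and 70.9 FPKM in PF-WT mice (log2 fold change 0.08). Klkb1 has 2 entries in the table, of which the more abundant was used, and 43.2% of its exon length is shared with Gm45753. F12, which starts the contact system, had 292, 281 and 293 FPKM in ETOH-WT mice and 263, 252 and 234 FPKM in PF-WT mice, with no overlap (log2 fold change 0.21 ± 0.09, SE, limma adjusted p = 0.190). Kininogen (Kng1), the source of bradykinin and the most abundant of this group, had 932, 1045 and 914 FPKM in ETOH-WT mice and 1170, 1085 and 925 FPKM in PF-WT mice (limma adjusted p = 0.553). Kng1 has a close copy, Kng2, so reads of the pair may be split. Kng2 had 201, 211 and 200 FPKM in ETOH-WT mice and 178, 177 and 174 FPKM in PF-WT mice, without overlap. Its log2 fold change was 0.21 (limma adjusted p = 0.155), against −0.13 for Kng1.

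The 3 fibrinogen chains, encoded within 42.1 kb on chromosome 3 and assembled in equal numbers, were among the most abundant members. Fgg had 1476, 1794 and 1452 FPKM in ETOH-WT livers and 2324, 1888 and 1637 FPKM in PF-WT livers. Fga had 1330, 1712 and 1299 FPKM in ETOH-WT livers and 1852, 1494 and 1243 FPKM in PF-WT livers. Fgb had 882, 1030 and 958 FPKM in ETOH-WT livers and 1413, 1127 and 949 FPKM in PF-WT livers. All 3 overlapped between the diets and kept the same order among the mice of each diet, except that ETOH-WT mouse 1 was lowest for Fgb. Their log2 fold changes were −0.30, −0.07 and −0.27 for Fgg, Fga and Fgb, none past the threshold (limma adjusted p = 0.298, 0.847 and 0.344). Relative to Fga in the same library, Fgg stood at 1.11, 1.05 and 1.12 in ETOH-WT mice and at 1.26, 1.26 and 1.32 in PF-WT mice, and Fgb at 0.663, 0.601 and 0.737 in ETOH-WT mice and at 0.763, 0.754 and 0.763 in PF-WT mice. Fgg relative to Fgb overlapped between the diets, at 1.67, 1.74 and 1.52 in ETOH-WT mice and 1.64, 1.68 and 1.72 in PF-WT mice. These ratios were also drawn up after the values were seen and carry no test. Factor V (F5) and the carrier subunit of factor XIII (F13b) had log2 fold changes of 0.12 and −0.05.

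The fibrinogen promoters are shown because the chains lie at a single locus and followed each other across mice. Fga and Fgb each hold a C/EBP core, and Fgg holds none in this window. The RefSeq start of Fga lies 77 bases from the start given in the table.
Fga promoter, chr3:83025903-83026202, plus strand: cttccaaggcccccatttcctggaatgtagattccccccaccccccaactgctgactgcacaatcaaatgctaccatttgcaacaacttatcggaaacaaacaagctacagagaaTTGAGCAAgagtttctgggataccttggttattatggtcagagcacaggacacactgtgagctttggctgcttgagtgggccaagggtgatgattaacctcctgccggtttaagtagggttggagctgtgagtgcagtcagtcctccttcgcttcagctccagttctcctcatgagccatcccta
Fgb promoter, chr3:83049814-83050113, minus strand: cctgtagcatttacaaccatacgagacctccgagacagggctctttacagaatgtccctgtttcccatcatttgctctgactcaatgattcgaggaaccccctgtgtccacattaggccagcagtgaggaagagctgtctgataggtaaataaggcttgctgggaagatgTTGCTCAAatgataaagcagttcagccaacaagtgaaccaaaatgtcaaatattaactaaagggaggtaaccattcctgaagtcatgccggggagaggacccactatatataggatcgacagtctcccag
Fgg promoter, chr3:83007474-83007773, plus strand: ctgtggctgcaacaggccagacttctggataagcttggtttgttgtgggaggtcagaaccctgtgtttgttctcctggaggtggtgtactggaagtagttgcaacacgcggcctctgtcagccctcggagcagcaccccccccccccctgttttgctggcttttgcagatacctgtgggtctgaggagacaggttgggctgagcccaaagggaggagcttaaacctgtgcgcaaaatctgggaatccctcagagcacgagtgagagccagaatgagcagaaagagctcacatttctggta

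Of the fibrinolysis genes, plasminogen (Plg), the precursor of plasmin, had 823, 848 and 841 FPKM in ETOH-WT livers and 853, 757 and 709 FPKM in PF-WT livers (log2 fold change 0.12, limma adjusted p = 0.534). Cpb2 encodes the carboxypeptidase TAFI, which protects fibrin from plasmin. It had 162, 194 and 167 FPKM in ETOH-WT livers, against 234, 230 and 219 FPKM in PF-WT livers, with no overlap. The log2 fold change of −0.39 ± 0.10 (SE) lay just outside the threshold (limma adjusted p = 0.0538). It passed with array weights (limma adjusted p = 0.00609), after quantile normalization (0.0245) and without ETOH-WT mouse 2 (−0.46, limma adjusted p = 0.0281). Cpb2 was not called in 12 of the 15 alternatives, with limma adjusted p up to 0.193. Hrg, the histidine-rich glycoprotein that binds plasminogen and heparin, had 524, 635 and 599 FPKM in ETOH-WT livers and 505, 452 and 456 FPKM in PF-WT livers (log2 fold change 0.31 ± 0.11, SE, limma adjusted p = 0.131). Its values did not overlap between the diets.

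The inter-alpha-trypsin inhibitor heavy chains, of which most are linked to hyaluronan and stabilize matrix, gave mixed directions. Itih2 had the highest log2 fold change of the 42 genes, 0.38 ± 0.11 (SE), with 468, 459 and 508 FPKM in ETOH-WT livers and 409, 363 and 330 FPKM in PF-WT livers, which did not overlap (limma adjusted p = 0.0726). Itih4 was the most abundant, with 813, 766 and 768 FPKM in ETOH-WT mice and 790, 690 and 625 FPKM in PF-WT mice (log2 fold change 0.16). Itih1 and Itih3, its neighbours on chromosome 14, had log2 fold changes of −0.15 and −0.33, and none of the 4 passed the threshold in limma. Itih3 relative to Itih2 in the same library was 0.463, 0.457 and 0.375 in ETOH-WT mice and 0.823, 0.734 and 0.578 in PF-WT mice. Vitronectin (Vtn), which keeps terminal complement complexes soluble, had 1320, 1276 and 1207 FPKM in ETOH-WT livers and 1383, 1292 and 1085 FPKM in PF-WT livers (log2 fold change 0.02, interval −0.26 to 0.30). Hgfac, a protease that activates hepatocyte growth factor, and Habp2, the factor VII-activating protease, had log2 fold changes of −0.17 and −0.01.

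Of the 42 genes, 17 lie in 7 loci whose members are within 100 kb of each other, and the rest are alone, on 15 chromosomes in all. Within a locus the diet values did not always match. F11 and Klkb1 had log2 fold changes of −0.84 and 0.08, Hrg and Kng1 had 0.31 and −0.13, and Itih4 and Itih3 had 0.16 and −0.33. Cfb and C2 (−0.02 and 0.24) and the C8 chains C8a and C8b (0.04 and −0.11) were closer to each other. The differences between neighbours were not tested.

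Most members had the same order among the pair-fed mice, and over all genes the deposited values leaned the same way, by less. PF-WT mouse 1 had the highest of the 3 PF-WT values in 36 of the 42 genes and PF-WT mouse 3 the lowest in 39. The matching counts over all genes tested were not made. The same order was seen in some other plasma protein genes, such as Apoa1, Ahsg, Pzp and Serping1. It was reversed in others, such as Ttr, Apoc1, Apoc3 and Rbp4. On log2(FPKM + 1), the median deviation of the members from the PF-WT mean was 0.15 in PF-WT mouse 1 and −0.17 in PF-WT mouse 3, against 0.04 and −0.05 over all genes tested. After median-ratio scaling of the libraries the members' medians were 0.09 and −0.10, against −0.01 and 0.01 over all genes tested. The counts of 36 and 39 then became 33 and 34, again without matching counts over all genes tested. The ETOH-WT mice lay closer, with medians of 0.01, 0.03 and −0.03. Markers of Kupffer cells, the liver macrophages, were also low in PF-WT mouse 3, with a summed level of 157 FPKM over 8 genes against 306 and 291 FPKM in the other PF-WT mice, while the ETOH-WT mice had 245, 170 and 221 FPKM. None of these 8 markers was at 0 in any liver, and their part in the members' spread was not tested. In all, 3 members (C8a, C8b and C6) differed by more than 2-fold between the highest and lowest PF-WT mouse, and F11 and C8b did so among the ETOH-WT mice.

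**Figure D4:**
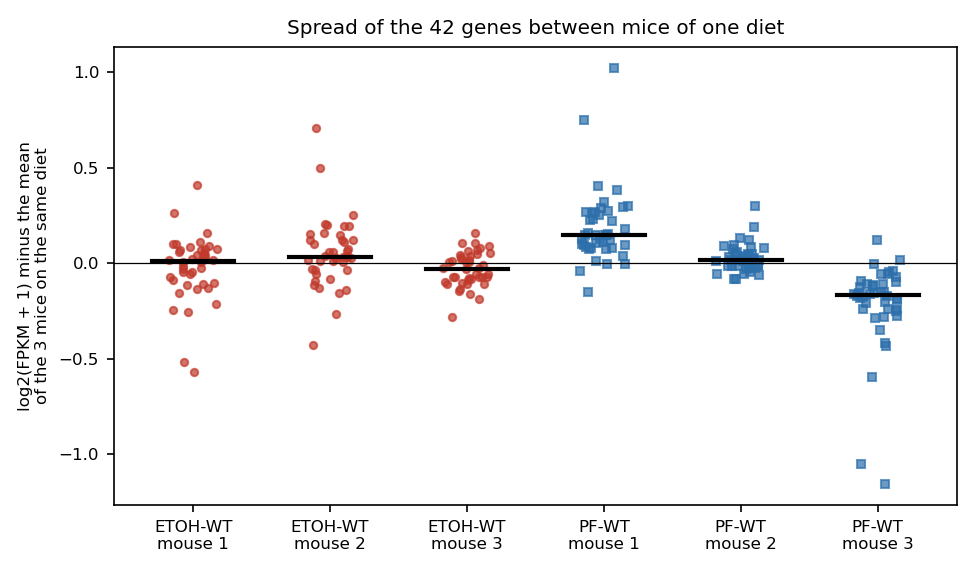
Deviation of each of the 42 genes in each mouse from the mean of the 3 mice on the same diet, on log2(FPKM + 1), with the median as a black line (red circles ETOH-WT, blue squares PF-WT). The points of PF-WT mouse 1 lie mostly above 0 (median 0.15) and those of PF-WT mouse 3 mostly below it (median −0.17), and the outermost points of both are C8a and C8b.

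Other complement and coagulation genes gave no calls. Of 19 further complement genes tested, 0 passed the threshold in limma, where 6.64% of all genes tested were called. At an unadjusted p under 0.05, 3 were higher (background 14.4%) and 0 lower (background 9.33%). Their median log2 fold change was 0.12. The 3 higher genes were Clu, C5ar1 and C1rl, with log2 fold changes of 0.37, 0.35 and 0.29. The C1q chains C1qa, C1qb and C1qc, made by macrophages, had −0.22, −0.38 and −0.23, and each was lowest in PF-WT mouse 3 or ETOH-WT mouse 2. C7, which links the terminal components, was under the filter, at 0.0149 to 0.164 FPKM in ETOH-WT mice and 0.102 to 0.287 FPKM in PF-WT mice. Of 19 further coagulation and fibrinolysis genes, 0 passed in limma, and the median was 0.09. At an unadjusted p under 0.05, 1 was higher (Kng2) and 0 were lower. Antithrombin (Serpinc1), the main inhibitor of thrombin, had 2344, 2547 and 2336 FPKM in ETOH-WT mice and 2122, 2277 and 2160 FPKM in PF-WT mice (log2 fold change 0.14, limma adjusted p = 0.482).

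The vitamin K cycle supplies the cofactor for the 7 dependent factors. Its carboxylase Ggcx and reductase Vkorc1 had log2 fold changes of 0.10 and 0.21 (limma adjusted p = 0.587 and 0.189), and Vkorc1l1 had 0.10. Nqo1, a quinone reductase that can act on vitamin K, was higher, with 11.5, 12.8 and 16.0 FPKM in ETOH-WT livers and 7.06, 7.32 and 9.98 FPKM in PF-WT livers (log2 fold change 0.66 ± 0.16, SE, limma adjusted p = 0.0469). This call was lost in every fit that left out a mouse except that without PF-WT mouse 3, with limma adjusted p of 0.0543 to 0.172. The call was also lost after median-ratio scaling (limma adjusted p = 0.0747) and quantile normalization (0.0738), with no filter (0.0548) and with no variance trend (0.0518). Cyp4f14, of the family that degrades vitamin K, had 43.5, 71.6 and 48.5 FPKM in ETOH-WT livers and 157, 122 and 73.7 FPKM in PF-WT livers, without overlap (log2 fold change −1.06, limma adjusted p = 0.0633).

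Acute phase genes, several of which the liver raises together with C3 and fibrinogen, gave calls in both directions. Of 18 tested, 2 were lower and 3 higher, where 2.67% of all genes tested were called lower and 3.97% higher. Hepcidin (Hamp), the iron hormone, had 820, 754 and 947 FPKM in ETOH-WT livers, against 1952, 2051 and 2435 FPKM in PF-WT livers (log2 fold change −1.35, limma adjusted p = 0.00321). Serum amyloid Saa2 fell to 8.51, 5.83 and 6.79 FPKM in ETOH-WT mice, against 26.2, 14.7 and 13.3 FPKM in PF-WT mice (−1.20, limma adjusted p = 0.0282). The endotoxin carrier Lbp rose to 81.5, 87.6 and 68.3 FPKM in ETOH-WT mice, against 49.5, 41.9 and 40.4 FPKM in PF-WT mice (0.83, limma adjusted p = 0.0106). Il1rn and Serpina3n, the interleukin-1 receptor antagonist and a serine protease inhibitor, were also higher (0.87 and 0.40, limma adjusted p = 0.0260 and 0.0376). Apart from Hamp, each of these calls was lost when at least 1 particular mouse was left out. Without PF-WT mouse 2, limma adjusted p was 0.0747 for Saa2, 0.0528 for Lbp, 0.106 for Il1rn and 0.176 for Serpina3n. In that fit the calls over all genes fell from 450 higher and 303 lower to 83 and 76. The calls were also lost for Saa2 without ETOH-WT mouse 2 (limma adjusted p = 0.0689) or ETOH-WT mouse 3 (0.0985), for Il1rn without ETOH-WT mouse 1 (0.0667), ETOH-WT mouse 3 (0.0894) or PF-WT mouse 1 (0.0653), and for Serpina3n without any of the 6 mice (0.0586 to 0.176). Serpina3n was lost as well after median-ratio scaling (limma adjusted p = 0.0661), after quantile normalization (0.0592) and with the replicate number as a block (0.0863). Of 15 other abundant plasma protein genes, 0 passed in limma, and their median log2 fold change was −0.21. At an unadjusted p under 0.05, 2 were higher (background 14.4%) and 2 lower (background 9.33%).

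Among 16 hepatocyte and acute phase transcription factors, 2 were higher (background 3.97%) and none lower (background 2.67%) past the threshold in limma. Hnf4a, which controls many liver secretory genes, had 155, 158 and 157 FPKM in ETOH-WT livers, against 113, 110 and 114 FPKM in PF-WT livers (log2 fold change 0.48 ± 0.07, SE, limma adjusted p = 0.0130). Nr1i3, the xenobiotic receptor CAR, had 227, 163 and 224 FPKM in ETOH-WT livers, against 140, 120 and 116 FPKM in PF-WT livers (0.70, limma adjusted p = 0.0310). Without PF-WT mouse 2, a fit with fewer calls over all genes, these calls were lost, with limma adjusted p of 0.0812 for Hnf4a and 0.122 for Nr1i3. Both were also lost without ETOH-WT mouse 3 (limma adjusted p = 0.0639 and 0.119), and Nr1i3 without ETOH-WT mouse 1 (0.0763) or PF-WT mouse 3 (0.0765) and after quantile normalization (0.0678). Of the genes for C/EBP factors, Cebpa, Cebpb and Cebpd had log2 fold changes of 0.01, −0.34 and −0.08 (limma adjusted p = 0.971, 0.378 and 0.816), none past the threshold.

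**Figure D5:**
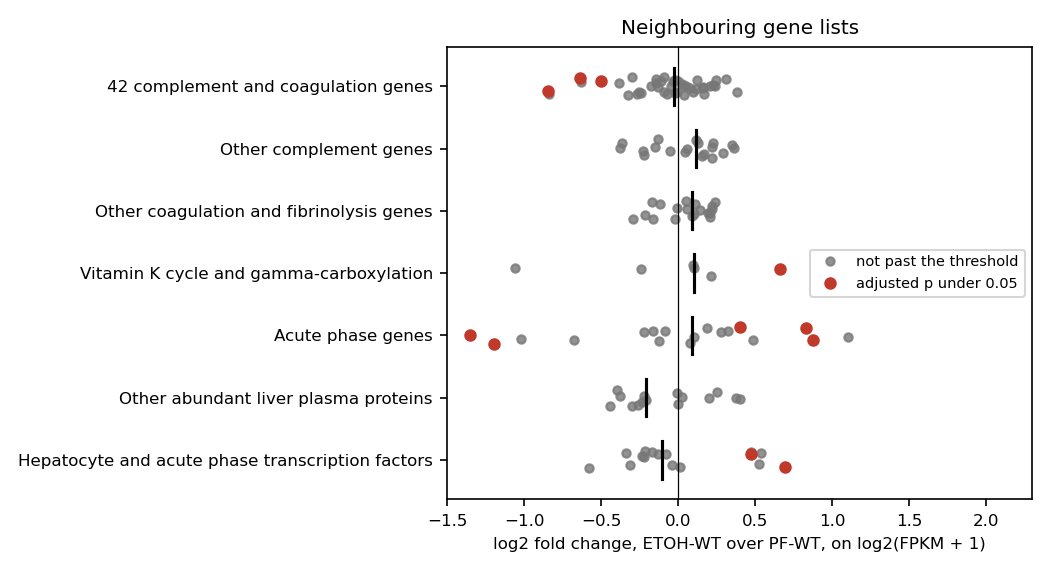
Log2 fold change of ETOH-WT over PF-WT on log2(FPKM + 1) for the 42 genes and 6 neighbouring lists, 1 point per gene, with red for genes past the threshold and a black line at each list's median. The 42 genes center near 0 (median −0.03) with 3 red points on the left, and the acute phase list has red points on both sides.

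The livers carried the markers of their tissue, with albumin at 8.03 to 8.66% of all FPKM in ETOH-WT mice and 9.35 to 10.6% in PF-WT mice. Low-value steps in the table gave rough depths, relative to PF-WT mouse 3, of 0.635 and 0.912 in ETOH-WT mice 2 and 3 and of 0.674 and 0.812 in PF-WT mice 1 and 2. The same reading gave 0.335 for ETOH-WT mouse 1. It used genes averaging under 0.08 FPKM, while no value in that mouse lay below 0.0867 FPKM. That figure is therefore not a measure of its depth, and which library is shallowest cannot be told. Across genes, which are not independent replicates, libraries of different diets correlated at 0.973 to 0.979 and those of the same diet at 0.984 to 0.992. No marker of Kupffer cells, sinusoidal endothelium, stellate cells, cholangiocytes, neutrophils, platelets, lymphocytes or erythroid cells passed the threshold in limma. At an unadjusted p under 0.05 there were 2 higher of 3 neutrophil genes, and 1 endothelial, 2 stellate, 1 cholangiocyte and 2 erythroid genes were lower. Over all genes tested, 14.4% were higher and 9.33% lower at that level. The summed level of 4 neutrophil markers was 26.5, 21.1 and 15.8 FPKM in ETOH-WT mice and 7.39, 10.5 and 18.9 FPKM in PF-WT mice, which overlapped, and its part in the results was not tested. Of these, S100a8, S100a9 and Retnlg were above 0 in every liver, and Ly6g, a defining marker, was listed at 0 in ETOH-WT mouse 2 and at 0.0813 to 0.346 FPKM elsewhere.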

How the data were processed

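Liver RNA-seq libraries of ETOH-WT mice (n = 3) and PF-WT mice (n = 3) were analyzed, grouped and numbered by the sample labels. The authors deposited a single table of values per gene and mouse, taken here as FPKM because they are fractional and total 567808 to 625003 in a library. The paper gives STAR (GRCm38), HTSeq-count and DESeq2 as the authors' tools. The notes of the submitters list TopHat2 2.0.11, HTSeq (0.11.2 and 1.6.3) and cutadapt instead. How FPKM were obtained from the reads is not stated, and a count test cannot be run on them.

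For each gene, log2(FPKM + 1) was computed. Those averaging at least 0.5 FPKM (11346 genes) were fitted by diet alone with limma 3.58.1 (R 4.3.3), using lmFit and eBayes with a variance trend, which left 4 residual degrees of freedom and gave a prior of 4.00. Two-sided p-values were adjusted by Benjamini-Hochberg over these genes and called below 0.05. Exact tests were not used, since with 3 mice in each group they cannot fall below 0.1. The p-values set the diet difference against the spread between mice and treat the mice as independent. Mice were housed 2 to a cage and cage mates are not known, so this may not hold. The procedure was tested on simulated data of 6 libraries. It recovered 36 of 67 genes changed 1.5-fold, 61 of 67 changed 2-fold and 64 of 66 changed 4-fold, and called 8 of 11146 unchanged genes. A member that was not called is therefore not shown to be unchanged.

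The members and the neighbouring lists were chosen with earlier results of these data known. All members were accounted for, with values per mouse for called members, the 3 highest and 3 lowest log2 fold changes not called, and the most abundant member of each role. Of a neighbouring list, called genes and the vitamin K cycle were named. Other genes were named after their values were seen. Where a gene name is repeated, as for 25 entries, the more abundant was used. Table starts count from 0 and are printed counting from 1, on GRCm38, and 80.0% of the 13273 entries then have the ends of GENCODE vM21. Promoters are from RefSeq (GRCm38.p6). Some genes of the neighbouring lists are not reported here. Alternatives were pseudocounts of 0.1 and 2, no filter, a mean of at least 1 FPKM, median-ratio scaling, quantile normalization, array weights, no variance trend, a replicate block and leaving out each mouse. Summaries used Python 3.11.15 (pandas 2.3.3, numpy 2.4.6, scipy 1.17.1), and figures matplotlib 3.10.9.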

Additional observations from a re-analysis of the deposited data

How the results depend on the processing

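The log2 fold changes of C4b, Mbl2 and C8g kept their sign under all 15 alternatives, and C4b passed the threshold in each. The number of members lower, 3, became 7 with array weights and 1 to 4 when a mouse was left out, and the number higher, 0, became 2 with array weights (Hrg and Itih2) and stayed 0 in every fit without a mouse. The further lower members with array weights were C9, F7, F11 and Cpb2, with limma adjusted p between 0.00609 and 0.0318. Among the neighbouring lists, 2 genes were lower and 6 higher, against 4 and 3 after quantile normalization, 7 and 20 with array weights, and 1 to 4 lower and 0 to 4 higher without a mouse. Among the marker genes, 2 were lower and 4 higher, against 8 lower with array weights and 1 to 3 lower and 0 to 5 higher without a mouse. The summed FPKM differed by −728 between the diets, by −1019 after median-ratio scaling, and by −1751 to 299.7 when a mouse was left out. Over all genes, 450 were higher and 303 lower, against 329 and 332 after median-ratio scaling, 386 and 351 after quantile normalization, 1327 and 945 with array weights, and 83 and 76 without PF-WT mouse 2. Sign changes occurred in 32 of 630 values, in 11 genes that had not passed the threshold, whose log2 fold change was at most 0.11 in size. The causes were not tested.

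Replicate numbers are shared between the diets, but no source says that they pair mice, and deviations of same-numbered mice correlated at −0.01, −0.02 and −0.03, within the range of −0.07 to 0.09 over all pairs. With the replicate block the members numbered 3 lower and 0 higher, with C9 gained (limma adjusted p = 0.0383) and C8g lost (0.0950), and over all genes 253 were higher and 201 lower. The neighbouring lists still counted 2 lower and 6 higher and the markers 2 lower and 4 higher, but not the same genes: with the block Serpina3n (limma adjusted p = 0.0863), Sds (0.0803) and Hsd17b13 (0.0521) were lost and other genes were gained.

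The unit of the table is inferred, and depth is known only roughly, in relative terms, and not for ETOH-WT mouse 1. With 3 mice a diet, intervals reach past 1.5-fold for 13 of the 42 genes. Diet cannot be told apart from whatever else the mice of a diet shared.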

Other observations

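Some markers of hepatocytes and of their zones differed between the diets. Tat, an amino acid enzyme, had 551, 441 and 563 FPKM in ETOH-WT livers, against 974, 1081 and 1286 FPKM in PF-WT livers (log2 fold change −1.10, limma adjusted p = 0.00762), and the cytochrome Cyp3a11 had 1728, 1644 and 2546 FPKM in ETOH-WT livers, against 779, 685 and 971 FPKM in PF-WT livers (1.27, limma adjusted p = 0.0130). Of 8 pericentral genes, Cyp1a2 and Slc1a2 were higher (0.83 and 0.80, limma adjusted p = 0.0175 and 0.0131) and none was lower. Of 8 periportal genes, Sds was lower (−0.73) and Hsd17b13 higher (0.86, limma adjusted p = 0.0310 and 0.0206). All of these calls except that of Tat were lost without PF-WT mouse 2, with limma adjusted p of 0.0620 for Cyp3a11, 0.0801 for Cyp1a2, 0.0589 for Slc1a2, 0.125 for Sds and 0.0639 for Hsd17b13. In that fit the calls over all genes fell from 450 higher and 303 lower to 83 and 76. The calls were also lost for Slc1a2 without ETOH-WT mouse 3 (limma adjusted p = 0.0610), for Sds without ETOH-WT mouse 2 (0.0710), ETOH-WT mouse 3 (0.118) or PF-WT mouse 3 (0.0755), and for Hsd17b13 without ETOH-WT mouse 1 (0.0532) or ETOH-WT mouse 3 (0.0811). With the replicate number as a block, Sds (limma adjusted p = 0.0803) and Hsd17b13 (0.0521) were lost too. The part of these differences in the member values was not tested.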
